A study of Mus musculus with 4 samples.

Results

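Chromosome 8 was described through all regions that were called on it for a pair of histone marks in rosette stem cells, mouse pluripotent cells held between the naive and the primed state. Its 4584 regions were 5.96% of the 76945 regions in the 4 lists of the series. CGR8 had 1067 H3K27me3 regions and 1366 H3K4me3 regions on it, and R1 had 798 and 1353. The cells were embryonic stem cells of the lines CGR8 (129/Ola background) and R1 (129 background). Both lines had spent 8 days in N2B27 medium with LIF, 2 µM IWP2, which blocks WNT secretion, and 1 µM PD325901, a MEK inhibitor, on plates coated with gelatin and fetal calf serum. Each mark was mapped by ChIP-seq in 1 library of each line, so differences between CGR8 and R1 have no replicate check and carry no test, and the line, its culture and its library cannot be told apart. Positions are on mouse build mm9 and count from 1.

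H3K27me3 is deposited by Polycomb repressive complex 2 and lies over silent genes, many of them regulators of development, and also over stretches with few genes. H3K4me3 marks promoters, active ones above all. Where H3K27me3 and H3K4me3 lie together in pluripotent cells, the site is called bivalent, a state typical of silent promoters of developmental genes. Gains of a whole chromosome 8 are a known event in cultures of mouse embryonic stem cells, which makes the behaviour of this chromosome in a comparison of lines a practical question. No region below has a gene name or a printed sequence, since the gene tables used here are on another build.

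Chromosome 8 was chosen because CGR8 had more H3K27me3 regions on it than R1. The values that chose it are therefore given as a description. They are the number of H3K27me3 regions per H3K4me3 region, the share of regions called in a single line, and the score ratios between the lines. The other 18 autosomes serve for comparison, without 1 stretch of chromosome 1, where the paired scores of both marks were much lower in CGR8. A region that shares 1 bp or more with the opposite line's list for its mark counts as shared, and any other as a region of that line alone. The score is the authors' value for each region.

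Over all called regions, chromosome 8 was the autosome with the most H3K27me3 regions relative to its H3K4me3 regions in CGR8 and in R1. In CGR8 it held 0.781 H3K27me3 regions per H3K4me3 region, against 0.448 to 0.691 on the other autosomes. In R1 it held 0.590, against 0.382 to 0.563. In the higher-scoring 50% of each list it was rank 2 in CGR8 (0.730) and rank 7 in R1 (0.513), and without its 110 to 120 Mb it was rank 3 in R1 (0.546). Over all regions the surplus was present in each line, and larger in CGR8. H3K4me3 itself was ordinary in number, at 10.6 regions per Mb in CGR8 and 10.5 in R1 between the first and last called positions, in each line the rank 10 of 19 autosomes.

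The surplus consisted of H3K27me3 regions without H3K4me3. Of the chromosome 8 regions, 338 of 1067 in CGR8 (31.7%, exact binomial 95% interval 28.9% to 34.6%) and 327 of 798 in R1 (41.0%, 37.5% to 44.5%) shared at least 1 bp with H3K4me3 in that line. Over the whole lists these shares were 41.3% in CGR8 and 48.8% in R1. With any overlap of at least 1 bp, chromosome 8 was the lowest of the 19 autosomes in each line. This did not hold when 50% of the region had to be covered (2.62% in CGR8 and 4.89% in R1, rank 11 and 10 from the top), nor in R1 for the higher-scoring 50% (44.2%, rank 17). The next lowest was chromosome 16, with 37.3% in CGR8 and 44.7% in R1, and its intervals, 32.8% to 41.9% and 39.5% to 49.9%, overlap those of chromosome 8. All these intervals cover counting error only.

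Set against H3K4me3 regions, H3K27me3 regions without H3K4me3 numbered 0.534 on chromosome 8 in CGR8, against 0.239 to 0.403 on the other autosomes. In R1 they numbered 0.348, against 0.164 to 0.280. H3K27me3 regions that did overlap H3K4me3 numbered 0.247 per H3K4me3 region in CGR8 and 0.242 in R1, in the middle of the other autosomes (0.209 to 0.288 in CGR8 and 0.218 to 0.296 in R1). The bivalent part of chromosome 8 was thus of ordinary size, and the part with H3K27me3 alone was large.

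**Figure D1:**
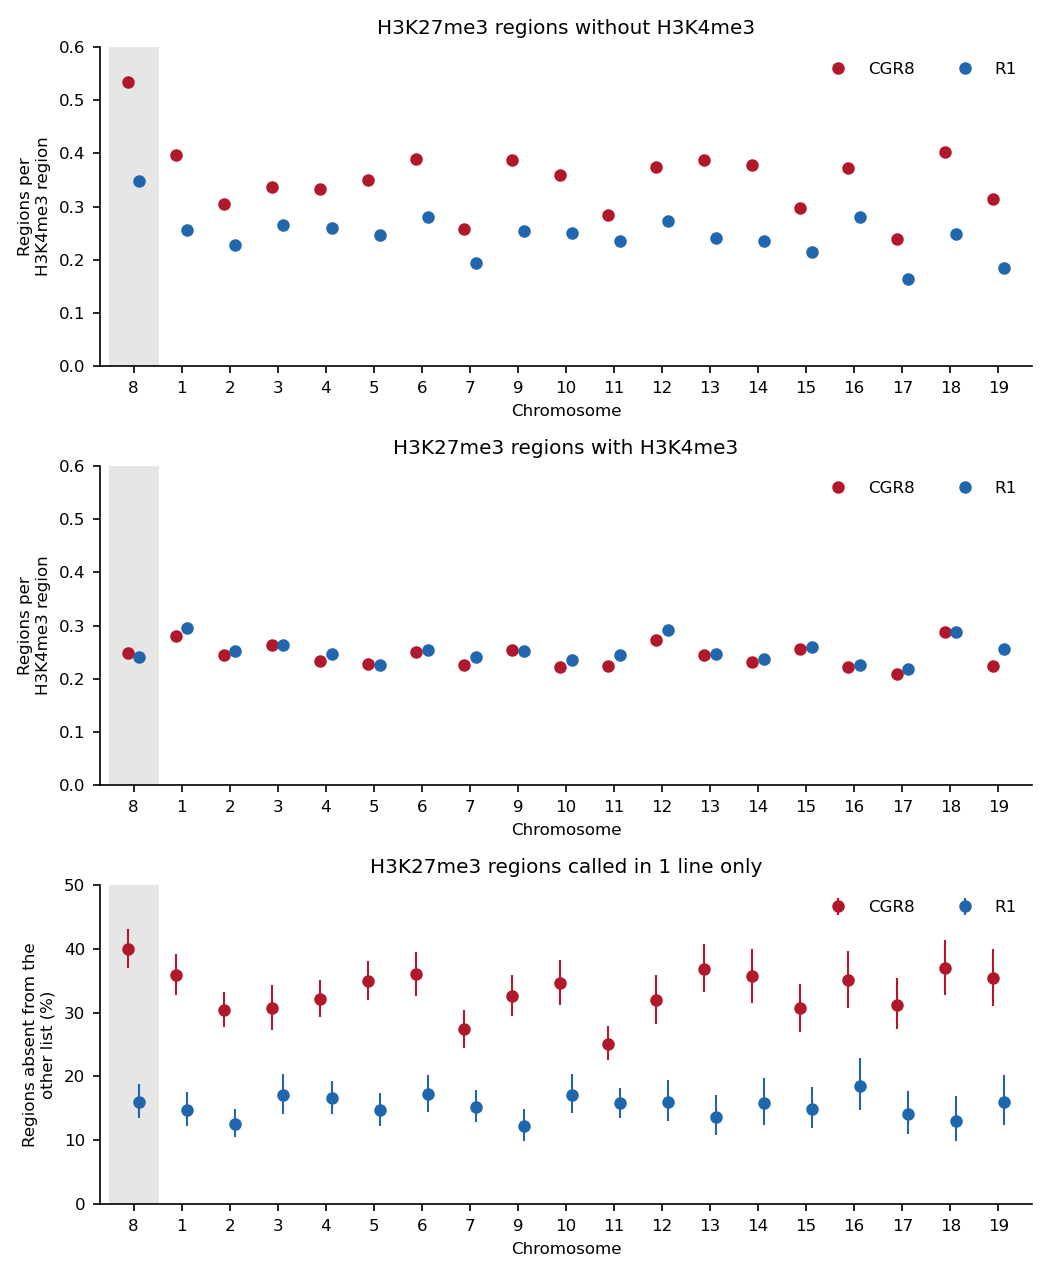
H3K27me3 regions of chromosome 8 (grey band) and of the other 18 autosomes, in CGR8 (red) and R1 (blue), 1 library each. The upper and middle panels give H3K27me3 regions without and with H3K4me3 per H3K4me3 region: chromosome 8 stands above all others in the upper panel (0.534 in CGR8 and 0.348 in R1) and among them in the middle one. The lower panel gives the percentage of regions called in that line alone, with exact binomial 95% intervals (counting error only): 40.02% in CGR8 and 16.0% in R1 on chromosome 8.

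The H3K27me3 regions of chromosome 8 were also weak for their length. The median score per kb was 18.1 in CGR8, against 18.5 to 20.8 on the other autosomes, and 18.3 in R1, against 19.6 to 23.4. Their width was ordinary, with a median of 7600 bp for the CGR8 list (7600 bp over the other autosomes) and of 6200 bp for the R1 list (6400 bp). H3K4me3 regions were 2000 bp wide at the median in each line, on chromosome 8 as elsewhere. H3K27me3 lay on 401 of the 1366 H3K4me3 regions of chromosome 8 in CGR8 (29.4%), beside 28.2% of the whole list, and on 387 of 1353 in R1 (28.6%), beside 29.1%.

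Regions of each kind can be shown by position. The widest H3K27me3 region found in both lines ran from 59786401 to 59844600 in CGR8 (58.2 kb, score 5114) and from 59786001 to 59837800 in R1 (51.8 kb, score 4832), with 5 H3K4me3 regions in each line. The next ran from 123393001 to 123428600 in CGR8 (35.6 kb, score 1327) and from 123403601 to 123428200 in R1 (24.6 kb, score 812), and overlapped no H3K4me3 region in either line. These are examples of the bivalent and the H3K27me3-only kind, and the second differed more in score between the lines. The remaining 3 of the 5 widest pairs lay from 101930201 to 101949400, from 107781801 to 107807400 and from 73002601 to 73029400 in CGR8, with widths of 19.2 kb, 25.6 kb and 26.8 kb there and of 36.8 kb, 28.8 kb and 25.8 kb in R1. Their log2 score ratios, CGR8 over R1, were -0.11, -0.29 and 0.02, so these wide regions, with 1 to 6 H3K4me3 regions each, were not stronger in CGR8 by more than 0.02.

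Stretches called for both marks in both lines numbered 341 on chromosome 8, with a median length of 1400 bp and 0.513 Mb in all. The longest were 5.6 kb each, from 35867801 to 35873400 and from 90481601 to 90487200. They were followed by 4.8 kb from 123010201 to 123015000 and by 4.2 kb each from 24520201 to 24524400 and from 72409401 to 72413600. At the stretch that began at 90481601 the H3K27me3 region had a score of 761.20 in CGR8 and 761.17 in R1, while at the one that began at 123010201 it had 221 in CGR8 and 429 in R1. The 3 widest H3K4me3 regions found in both lines, 12.4 kb, 10.6 kb and 10.0 kb long in CGR8, began at 91559801, 3392601 and 11000601 there. Their log2 score ratios lay between -0.02 and 0.01, so the broadest H3K4me3 regions of the chromosome scored alike in CGR8 and R1.

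The line comparison asked whether CGR8 and R1 differ over chromosome 8 as a whole or in a few stretches. CGR8 had 269 more H3K27me3 regions than R1 on it, 10.3% of the CGR8 excess of 2607 over all autosomes without the chromosome 1 stretch. Chromosome 8 held 7.32% of the whole CGR8 H3K27me3 list and 6.38% of that of R1. The CGR8 list was the longer, with 14575 regions against 12511. In number of regions, CGR8 over R1 was 1.337 on chromosome 8, rank 2 of 19 after chromosome 18 (1.338). On chromosome 8 the CGR8 regions covered 9.70 Mb and the R1 regions 6.07 Mb, a ratio of 1.60, against 1.26 to 1.49 on the other autosomes. For H3K4me3 the covered length was 3.27 Mb in CGR8 and 3.06 Mb in R1, a ratio of 1.07, within the 1.04 to 1.095 of the others. H3K27me3 regions per H3K4me3 region were 1.32 times as many in CGR8 as in R1, against 1.06 to 1.29 elsewhere, with chromosome 13 next at 1.29. The gap to chromosome 13 is small, and without its 120 to 130 Mb chromosome 8 was rank 4 (1.28).

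Of the excess of 269 regions, 258 (95.9%) were regions without H3K4me3 and 11 were regions with it. This was not particular to chromosome 8. On the other autosomes pooled, regions without H3K4me3 numbered 7757 in CGR8 and 5360 in R1, and regions with it 5577 and 5636. On chromosome 8 the split was as follows. Regions without H3K4me3 numbered 729 in CGR8 and 471 in R1, a ratio of 1.55. Other autosomes had ratios of 1.24 to 1.74 for such regions, and chromosome 8 was rank 7 of 19. Regions with H3K4me3 numbered 338 in CGR8 and 327 in R1, a ratio of 1.03, against 0.905 to 1.04. Within regions free of H3K4me3, the CGR8 to R1 ratio on chromosome 8 was therefore inside the range of the other autosomes, while the ratio for regions with H3K4me3 was near the top of theirs.

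On chromosome 8, 427 of 1067 H3K27me3 regions of CGR8 had no R1 partner (40.02%, exact binomial 95% interval 37.1% to 43.0%), against 32.9% of the whole CGR8 list. The other autosomes ranged from 25.1% to 36.99%, with chromosome 18 next (32.8% to 41.3%), whose interval overlaps that of chromosome 8. In R1, 128 of 798 had no CGR8 partner (16.0%, 13.6% to 18.8%), against 15.2% of the other autosomes pooled, which ranged from 12.2% to 18.5%. The whole R1 list, with the sex chromosomes and the stretch of chromosome 1, had 18.9%. The higher share of single-line regions on chromosome 8 was thus on the CGR8 side. H3K4me3 showed none of this: 137 of 1366 regions of CGR8 alone (10.0%) and 103 of 1353 of R1 alone (7.61%) stood beside 10.2% and 7.43% of the whole lists.

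The CGR8 value moved with the make-up of the chromosome. Of the CGR8 H3K27me3 regions without H3K4me3, 53.6% were found in CGR8 alone on chromosome 8, against 40.7% to 57.4% on the other autosomes, which made it rank 5. Of those with H3K4me3, the figure was 10.7%, against 5.45% to 11.8%. If chromosome 8 regions had the CGR8-alone share of regions elsewhere, 348 would be of CGR8 alone. With the share taken within regions of the same H3K4me3 status this number is 393, and with the same status and the same score class of 10 it is 379. The 427 found were 1.23, 1.09 and 1.13 times these numbers, and by the last measure chromosome 8 was rank 2 of 19, within a range of 0.791 to 1.15 for the others. For R1 alone, the 128 regions were 0.935 times the 137 given by status and score class.

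At equal score, chromosome 8 regions were more often of CGR8 alone and less often accompanied by H3K4me3 than those of the other autosomes pooled. The share of CGR8 alone was higher on chromosome 8 in 9 of 10 score classes, and the share with H3K4me3 was lower in 10 of 10 in CGR8 and in 9 of 10 in R1. In class 4 of CGR8, 61.8% of chromosome 8 regions were of CGR8 alone, against 50.1% elsewhere, and 13.6% overlapped H3K4me3, against 22.2%. In class 8 the values were 9.35% against 4.72% of CGR8 alone, and 46.7% against 60.6% with H3K4me3. For R1 alone the share was higher on chromosome 8 in 3 of 10 classes only. Single autosomes were not compared class by class. Over all classes, the CGR8-alone number was set against that given by the score class alone. There chromosome 8 was rank 1 of 19, with chromosome 18 next. By score class and H3K4me3 status, this ratio was 1.15 on chromosome 18 and 1.13 on chromosome 8. The higher CGR8-alone share at equal score was thus not particular to chromosome 8.

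**Figure D2:**
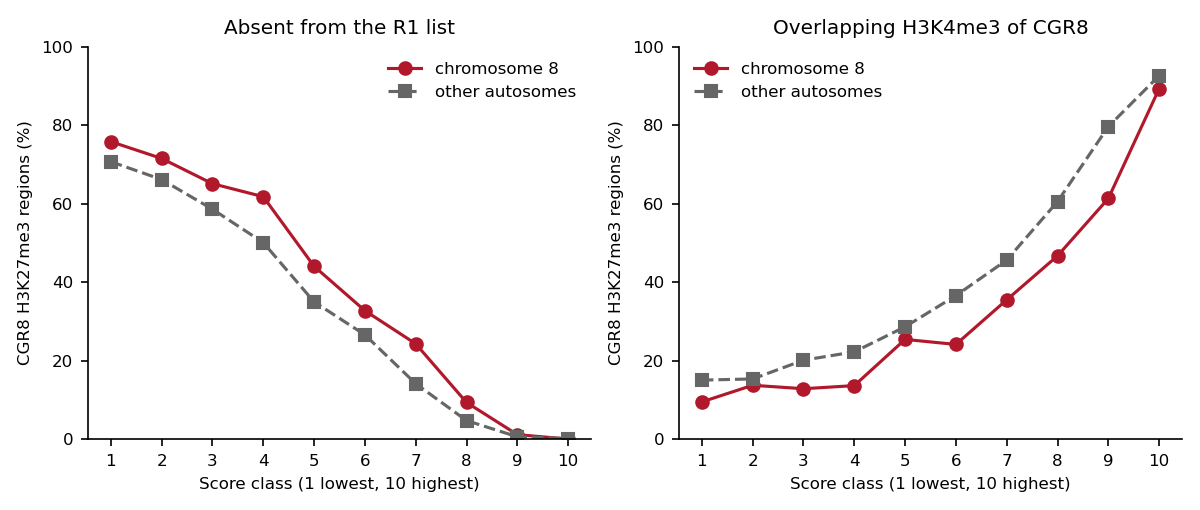
CGR8 H3K27me3 regions in 10 score classes of equal size over the whole list, for chromosome 8 (red circles) and the other autosomes pooled (grey squares). The left panel gives the percentage absent from the R1 list and the right panel the percentage overlapping H3K4me3. Chromosome 8 lies above the pooled value on the left in 9 of 10 classes and below it on the right in all 10. Single autosomes are not shown.

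The regions of CGR8 alone stood low in score, with a median of 93.4 on chromosome 8, against 193 for shared ones there. The contrast was much the same on the other autosomes pooled, at 90.04 against 188.6. Of the 427, 36 overlapped H3K4me3 of CGR8 (8.43%, against 10.3% on the other autosomes pooled). On an H3K4me3 region of R1 lay 41 of the 427 (9.60%, against 9.64%). The nearest R1 H3K27me3 region was 34.2 kb away at the median, and 24.4% had one within 10 kb. On the other autosomes these values were 29.2 kb and 28.0%. Most CGR8-alone regions of chromosome 8 thus lay more than 10 kb from any R1 region. The 128 regions of R1 alone had a median score of 70.6, and 18 of them (14.1%) overlapped H3K4me3 of R1. This was the lowest share of the 19 autosomes, against 18.2% to 41.4% on the others and 29.7% for them pooled.

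The widest H3K27me3 region of CGR8 alone, from 12148601 to 12179800, had a score of 488, higher than 88.4% of the CGR8 list, and lay 7.8 kb from the nearest R1 region. The next ran from 125160601 to 125180600 (20.0 kb, score 243), from 125366601 to 125385800 (19.2 kb, score 301), from 11366201 to 11385000 (18.8 kb, score 275) and from 117661801 to 117679800 (score 196). Of these 5, the last overlapped an H3K4me3 region and the others none. In the order given, those after the widest lay 9 kb, 153.8 kb, 48.6 kb and 1 kb from the nearest R1 region. The widest of R1 alone ran from 35454001 to 35466800 (12.8 kb, score 184), followed by 17462201 to 17474000, 10756801 to 10767600, 55107001 to 55117400 and 113084401 to 113094800 (10.4 kb to 11.8 kb). None of these overlapped H3K4me3. In the same order they lay 81.6 kb, 29.8 kb, 10 kb, 418.2 kb and 1 kb from the nearest CGR8 region. The highest-scoring H3K4me3 regions of a single line were short, from 87253801 to 87255400, from 125713601 to 125716200 and from 87153201 to 87154600 in CGR8 (scores from 121 to 160). In R1 they ran from 124365001 to 124367400, from 97394201 to 97395400 and from 25705801 to 25706600 (scores from 112 to 296). All 6 stood below the middle of their lists.

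Regions paired 1 to 1 between the lines allowed a comparison at places where both lines carry the mark. For H3K27me3, 529 pairs on chromosome 8 had a median log2 score ratio of 0.37, CGR8 over R1 (95% interval of the median from order statistics 0.32 to 0.42). The 7508 pairs on the other autosomes had 0.24, and single autosomes ranged from 0.15 to 0.31. The difference of 0.13 is a 1.095-fold higher score. Chromosome 12, the next, had an interval of 0.24 to 0.36 that overlaps that of chromosome 8. The upward shift ran through the distribution, with quartiles of 0.09 and 0.70 on chromosome 8, against -0.03 and 0.57 elsewhere.

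Relative to the median of the other autosomes, 100 of the 529 H3K27me3 pairs (18.9%) were at least 1.5-fold higher in CGR8, beside 13.6% of all pairs, and 37 (6.99%) at least 1.5-fold lower, beside 8.57%. Most pairs of chromosome 8 thus moved by less than 1.5-fold either way. Pairs with H3K4me3 in both lines had a median log2 ratio of 0.23 (237 pairs), against 0.02 to 0.21 on the other autosomes. Pairs without H3K4me3 in either line had 0.54 (261 pairs), against 0.30 to 0.57, where chromosome 8 was rank 3. The pooled medians elsewhere were 0.14 with and 0.45 without H3K4me3, so both kinds of pair on chromosome 8 stood above the pooled median. Pairs without H3K4me3 numbered 261 of 529 on chromosome 8 and 2994 of 7508 elsewhere. Among them the difference from the other autosomes was 0.096, below the 0.13 of all pairs. The part of this mix of pairs in the 0.13 was not tested. Among pairs without H3K4me3, chromosomes 14 (0.55) and 18 (0.57) stood higher.

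For H3K4me3 the shift had the same sign and was much smaller. The 1193 pairs of chromosome 8 had a median log2 ratio of 0.058 (interval 0.041 to 0.077), against 0.027 for 20126 pairs elsewhere, a difference of 0.031 or 1.02-fold. Chromosome 8 was the highest autosome here too, with chromosome 4 next at 0.052 and the lowest, chromosome 13, at -0.0075. Of the 1193 pairs, 94 (7.88%) were at least 1.5-fold higher in CGR8, beside 7.38% of all pairs, and 63 (5.28%) at least 1.5-fold lower, beside 6.09%. In the stretch of chromosome 1 that was left out, 65 H3K4me3 pairs stood 1.07 below the other autosomes on the log2 scale. Its 27 H3K27me3 pairs stood 1.49 below, so both were lower in CGR8. These scores have no stated formula and do not measure copies. The cause of the chromosome 1 difference and the number of copies of chromosome 8 in either culture were not tested.

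**Figure D3:**
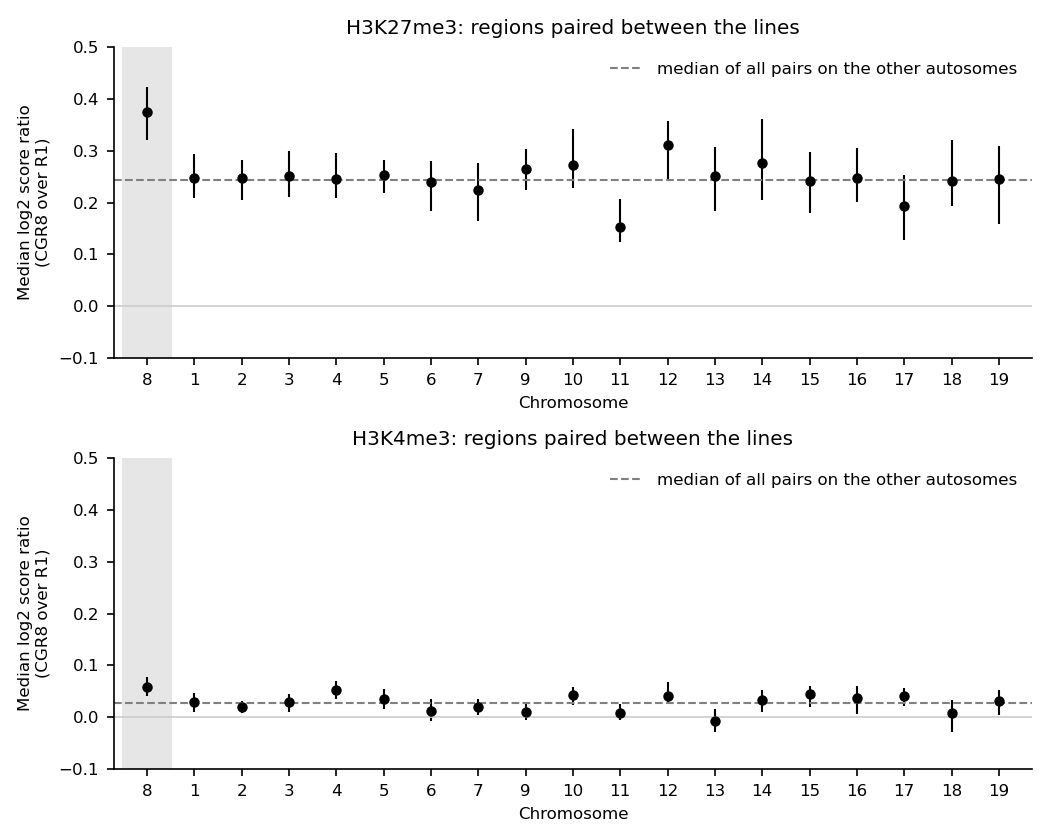
Median log2 score ratio, CGR8 over R1, of regions paired between the lines, for chromosome 8 (grey band) and the other 18 autosomes, with 95% intervals of the median (counting error only). The dashed line is the median of all pairs on the other autosomes: chromosome 8 lies at 0.37 against 0.24 for H3K27me3 and at 0.058 against 0.027 for H3K4me3.

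The library totals behind the lists are unknown, but the scores of the shortest regions fit 1 mean read number per 200 bp window in each list. It was 2.11 in CGR8 and 1.92 in R1 for H3K27me3 (1.097 times), and 0.7399 in CGR8 and 0.706 in R1 for H3K4me3 (1.05 times). The R1 H3K27me3 value rests on 2 regions and is uncertain. With these means a score can be turned into the read number it would take if reads were spread evenly over the region. On that scale the median chromosome 8 pair had 6.29 reads per window in CGR8 and 5.41 in R1 for H3K27me3. The shift of chromosome 8 against the other autosomes was then 0.062 on the log2 scale (1.04-fold) for H3K27me3 and 0.020 (1.014-fold) for H3K4me3. Chromosome 8 was the highest of 19 for each mark on this scale too. With so few short R1 regions, a difference in depth between the H3K27me3 libraries is uncertain, and the part of depth in the number of weak regions called was not tested.

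Along chromosome 8, H3K27me3 regions lay in 118 bins of 1 Mb. CGR8 had more of them than R1 in 70 bins, the lines were equal in 20, and R1 had more in 28. The share of bins with more in CGR8, 59.3%, was rank 6 of 19, inside the 45.0% to 64.3% of the other autosomes. In plain counts, not scaled to the number of regions, the gains were outside their range. The 5 bins with the largest gains held 64 extra regions, against 32 to 61 on the others. Gains of all bins summed to 326, against 108 to 244. As a share of the summed gains, those 5 bins held 19.6%, rank 15 of 19 (13.9% to 36.2% on the others). The median score ratio of H3K27me3 pairs lay above that of the other autosomes in 52 of 71 bins with at least 3 pairs (73.2%), against 36.6% to 61.4% on the others. For H3K4me3 this was so in 54 of 84 bins (64.3%), where chromosome 4 had 65.7% and the lowest autosome 37.5%. The score shift was thus seen in most bins with at least 3 pairs, with bin medians from -0.24 to 1.55 for H3K27me3. The other bins with at least 3 pairs did not show it, among them 86 to 87 Mb (10 H3K27me3 pairs, median -0.17). Bins with fewer than 3 pairs were not judged. Relative to the other autosomes, the median log2 ratio of H3K27me3 pairs was -0.037 from 70 to 80 Mb (41 pairs). From 80 to 90 Mb it was -0.078 (33 pairs). In every other step of that length it was positive.

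The excess in number also varied along the chromosome. In the longest run of neighbouring bins with more regions in CGR8, 13 bins from 116 to 129 Mb, CGR8 had 243 H3K27me3 regions and R1 145. The next run, 9 bins from 8 to 17 Mb, had 118 in CGR8 and 58 in R1. H3K4me3 regions were nearly equal in number there, at 210 in CGR8 and 204 in R1 in the distal run and at 83 and 82 in the proximal one. In these runs 46.9% and 58.5% of the CGR8 regions had no R1 partner. Since the runs were picked by more regions in CGR8, high shares there follow from the choice. These runs lie towards opposite ends of the called part of the chromosome, which reached from 3119801 to 131671600. Their median log2 ratio of H3K27me3 pairs was 0.44 in the distal and 0.59 in the proximal run, and of H3K4me3 pairs 0.065 and 0.063.

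Both runs together held 158 of the 269 extra regions (58.7%). Without them, chromosome 8 had 706 H3K27me3 regions in CGR8 and 595 in R1, and the ratio of H3K27me3 per H3K4me3 region was 1.18. The runs were picked by the excess, so leaving them out must lower the ratio. Inside both runs the ratio was 1.74, rank 3 of 19, against 1.27 to 2.23 in such runs of the other autosomes. Left out in the same way, the longest pair of runs on each other autosome held 19.8% to 65.6% of its excess and left ratios of 1.02 to 1.22, among which chromosome 8 was rank 5. Its longest run was the longest of all, with chromosome 13 next at 12 bins. Outside the runs, the median log2 ratio of chromosome 8 still stood above the other autosomes with their runs kept, by 0.092 for H3K27me3 and 0.030 for H3K4me3. There, 34.6% of CGR8 H3K27me3 regions had no R1 partner. This was inside the 25.1% to 36.99% of the other autosomes with their runs kept (32.6% pooled).

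From 50 to 80 Mb the lines showed little difference in number, but the scores were not uniform. CGR8 had 125 H3K27me3 regions there and R1 117. The steps beside it differed more, with 72 in CGR8 and 53 in R1 from 40 to 50 Mb. From 80 to 90 Mb the numbers were 61 and 50. The contrast with the rest of the chromosome therefore depends on where the stretch is cut. Relative to the other autosomes, the median log2 ratio of H3K27me3 pairs was 0.15 from 50 to 60 Mb (18 pairs), 0.24 from 60 to 70 Mb (17 pairs) and -0.04 from 70 to 80 Mb (41 pairs). For H3K4me3 it was -0.17, 0.05 and 0.01 in the same steps (19, 41 and 167 pairs). Over the whole of 50 to 80 Mb the H3K27me3 value was 0.0085 (76 pairs), close to the other autosomes. It was positive in both steps up to 70 Mb, where pairs were few and the numbers of regions nearly equal. Regions without H3K4me3 made up 28 of 32 in CGR8 and 25 of 30 in R1 from 50 to 60 Mb, and 18 of 59 in CGR8 and 13 of 55 in R1 from 70 to 80 Mb. From 110 to 130 Mb, CGR8 had 352 regions and R1 233, and 25.9% and 33.9% overlapped H3K4me3. In steps of 10 Mb up to 130 Mb, the number of H3K27me3 regions in CGR8 over that in R1 ran from 1.06 (60 to 70 Mb) to 1.59 (120 to 130 Mb).

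The bins with the most H3K27me3 regions of CGR8 alone began at 10, 122, 123 and 8 Mb, followed by those at 23 and 94 Mb, tied with 12 each. The bin from 10 to 11 Mb had 21 regions in CGR8, 17 of them in CGR8 alone, and 5 in R1, while H3K4me3 regions numbered 6 in CGR8 and 7 in R1. The bin from 122 to 123 Mb had 36 regions in CGR8 and 23 in R1, with 15 of CGR8 alone. The bins at 123, 8, 23 and 94 Mb had 33, 22, 18 and 25 regions in CGR8 and 28, 10, 8 and 14 in R1. R1 alone had its most regions in the bin that began at 98 Mb, with 9, followed by the bins at 3, 17 and 28 Mb, tied with 5 each. In the bin from 98 to 99 Mb, CGR8 had 12 regions and R1 19. Single bins thus went in either direction, and the largest excess of R1, 7 regions, was smaller than that of CGR8, 16 regions.

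**Figure D4:**
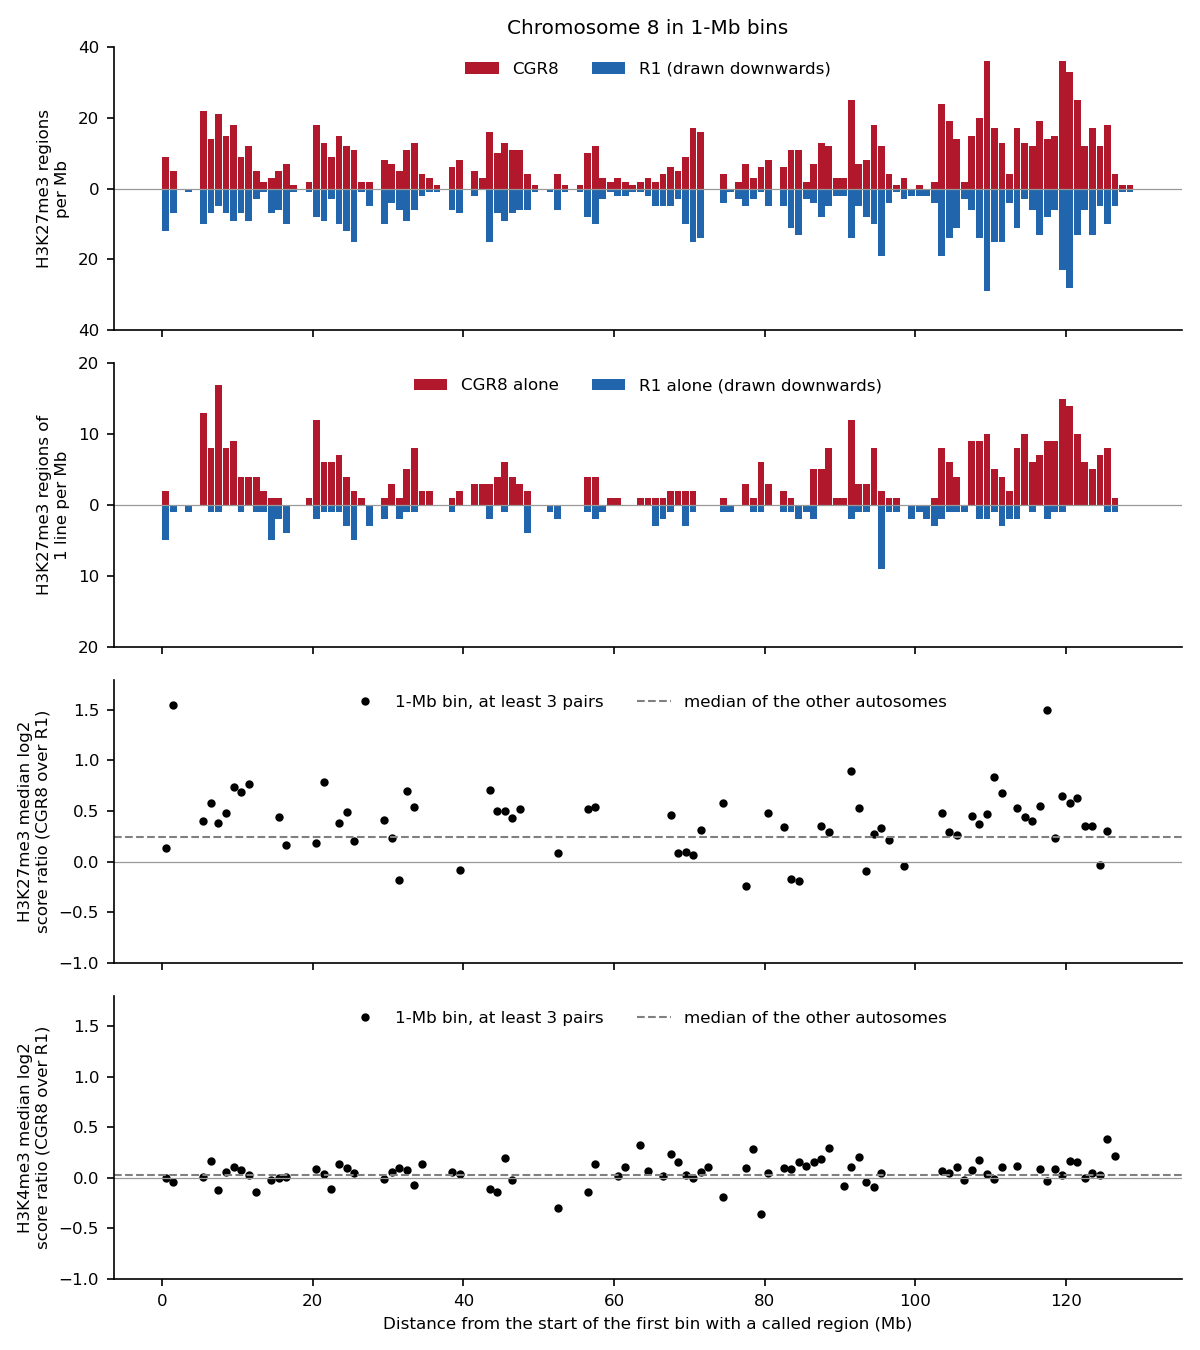
Chromosome 8 in 1-Mb bins, by distance from the first bin with a called region. The upper panels give the number of H3K27me3 regions and of those called in a single line, CGR8 upwards (red) and R1 downwards (blue). The lower panels give the median log2 score ratio (CGR8 over R1) of bins with at least 3 pairs, with the median of the other autosomes dashed: 52 of 71 bins lie above it for H3K27me3 and 54 of 84 for H3K4me3.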

How the data were processed

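The authors deposited 1 list of called regions per library, with a chromosome, start, end and score per region. The deposited score has no stated unit or formula. Per the submitters' processing notes, Bowtie2 2.0.2, SICER 1.1 and bedtools 2.20.1 were among the tools and the build was mm9; the sources used here give neither their order and settings nor any control library. Per the labels, the antibodies were from Millipore (H3K27me3) and Diagenode (H3K4me3), while the protocol credits Diagenode for both. Read totals are unknown. All bounds lie on a 200 bp grid, starts were shifted to count from 1, and the gene tables at hand are on GRCm38.p6, so no gene was assigned.

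Shared regions overlapped by at least 1 bp. Pairs were regions with a single partner each way. Score ratios were log2, CGR8 over R1. Bins of 1 Mb were assigned by region midpoint, and runs are neighbouring bins with more H3K27me3 regions in the same line; this measure replaced departure from the chromosome's median and was chosen after values were seen. Shares have exact binomial intervals and medians order-statistic intervals (95%), for counting error only. The mean per window was taken as the value for which all scores of regions up to 400 bp (8, 144, 2 and 155 in CGR8 H3K27me3, CGR8 H3K4me3, R1 H3K27me3 and R1 H3K4me3) equal sums of negative natural logs of Poisson probabilities, within 1e-06. Regions named by position follow a rule by width, score or number of single-line regions. Chromosome 8, the comparisons and the alternatives were chosen with earlier results of these data known. The code was tested on simulated data. Python 3.11.15, numpy 2.4.6, scipy 1.17.1, pandas 2.3.3 and matplotlib 3.10.9 were used.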

Additional observations from a re-analysis of the deposited data

How the results depend on the processing

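Under the alternatives, chromosome 8 stayed the highest autosome in the CGR8-alone share of H3K27me3 regions and in both score shifts, with an exception. Where H3K27me3 regions without H3K4me3 alone were used, it was rank 5 for the share and 3 for the H3K27me3 shift. Both score shifts stayed positive throughout. The share of bins with more H3K27me3 regions in CGR8 fell from 59.3% to 46.6% with lists of equal length. The CGR8-alone share of H3K27me3 was 47.5% when 50% of a region had to be covered, 48.4% with a common lowest score, 33.9% with lists of equal length and 53.6% in regions without H3K4me3. The R1-alone share was 9.40% in the higher-scoring 50% of each list, 10.1% with a common lowest score, 20.2% with equal lengths and 23.4% without H3K4me3. For H3K4me3 the CGR8-alone share was 4.85% in the higher-scoring 50% and 8.46% with equal lengths, and the R1-alone share 1.75% in the higher-scoring 50%. H3K27me3 regions overlapping H3K4me3 were 2.62% (CGR8) and 4.89% (R1) with 50% of the region covered, where chromosome 8 was rank 11 and 10, 34.9% in CGR8 with equal lengths and 48.7% in R1 with a common lowest score. H3K27me3 regions without H3K4me3 per H3K4me3 region were 0.348 in R1. Bins with more H3K27me3 regions in CGR8 were 73.9% with a common lowest score, 46.6% with equal lengths and 70.4% in bins of 5 Mb. The H3K27me3 score shift was 0.062 as implied reads. The H3K27me3 per H3K4me3 ratio of CGR8 over R1 was 1.65 with a common lowest score, where chromosome 8 was rank 2, 1.29 with regions under 1000 bp apart merged (rank 2), 1.15 with equal lengths (rank 1) and 1.53 in regions without H3K4me3 (rank 6). In the higher-scoring 50%, chromosome 8 was rank 2 in CGR8 (0.730) and 7 in R1 (0.513) for H3K27me3 per H3K4me3 region. The cause of these changes was not tested. The choice to use regions without H3K4me3 alone, and to leave out each 10 Mb of chromosome 8 in turn, was made after seeing the data. Over the 10-Mb omissions the ratio of CGR8 over R1 ran from 1.28 (without 120 to 130 Mb, rank 4) to 1.35, H3K27me3 per H3K4me3 region from 0.720 to 0.850 in CGR8 and from 0.546 (without 110 to 120 Mb, rank 3) to 0.637 in R1, the H3K27me3 shift from 0.12 to 0.15, the H3K4me3 shift from 0.026 to 0.035 and the CGR8-alone share from 38.9% to 41.5%. No paired analysis was possible because each line and mark has 1 library and no result comes from a test.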
